A study of Homo sapiens with 28 samples.

Results

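CTCF peaks that the hypoxia list of T47D cells held and the normoxia list did not, at positions where neither condition had a ZHX2 peak, numbered 4372 of 77334 hypoxia CTCF peaks on chromosomes 1 to 22 and X, or 5.65%. They are called hypoxia-only CTCF peaks below. They were selected on measured values: a peak was taken when it shared not even 1 base with a normoxia CTCF peak, a hypoxia ZHX2 peak or a normoxia ZHX2 peak. Their presence in hypoxia and absence in normoxia are therefore the choice itself and not a finding. T47D is an established luminal breast cancer line, profiled by chromatin immunoprecipitation and sequencing (ChIP-seq). The groups were CTCF, ZHX2 and H3K27ac immunoprecipitated in hypoxia, the same 3 in normoxia, and Flag immunoprecipitated in hypoxia from cells carrying Flag-tagged ZHX2, either the WT form or the form that the labels name PA. Each of these 8 groups had 2 samples and 1 peak list, and 12 further samples had no antibody. Cells were kept in RPMI medium, hypoxia was given in a workstation and the hypoxic cells were fixed inside it. The sources used here do not give the oxygen level or the time. Engineered cells had received a lentivirus and were selected with an antibiotic, and ZHX2 of the cell's own genome was not stated to be removed. Nothing says that the 2 samples of a group came from separate cultures, and no list gives values per sample. No difference between hypoxia and normoxia could therefore be tested, and intervals are 95% Wilson intervals on shares and 95% Newcombe intervals on differences, which cover counting error over peaks only. As a check of the cell type, all 10 luminal marker genes had a hypoxia H3K27ac peak within 1 kb of an annotated end (normoxia 9 of 10). In each condition 1 of 5 basal markers (KRT17), 1 of 4 immune markers (CD3E) and 1 of 4 stromal and endothelial markers (COL1A1) had one.

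CTCF is a zinc finger DNA-binding protein that stops the cohesin ring as it extrudes chromatin loops, so that strong CTCF sites become loop anchors and domain borders. Most of its strong sites are occupied in nearly every cell type, while weaker ones vary with DNA methylation, nucleosomes and nearby active promoters. ZHX2, a protein with zinc fingers and homeoboxes, is a target that the VHL ubiquitin ligase marks for destruction when oxygen is present. H3K27ac, acetylation of lysine 27 on histone H3, marks active promoters and enhancers.

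The sequence under most of these peaks could not be shown, because the reference used here holds promoter windows only (250 bases before to 50 after a RefSeq gene start, GRCh38.p14). The summit of a hypoxia-only CTCF peak fell in 82 such windows of protein-coding genes. Some peaks, such as those at BCAM, CTDSP1 and DPM3, count in more than 1 window. The windows are therefore not independent, which the intervals do not take into account. A CTCF core was searched on both strands as CNAGGGGGC, CNAGGTGGC, CNAGATGGC or CNAGAGGGC. It stood in 5 of the 82 windows (6.10%, interval 2.63% to 13.5%), and in each of the 5 at least 1 copy lay inside the CTCF peak. With summits within 250 bases counted as overlap the share was 12.2% of 180 windows, and with peaks cut to 200 bases 11.1% of 225, so that its side of the share of all windows depends on how overlap is defined. The same letters were in 12.8% of 164 windows with the summit of a normoxia-only CTCF peak without ZHX2 (8.53% to 18.8%), in 20.8% of 712 windows with a CTCF summit of both conditions without ZHX2 (18.0% to 23.9%) and in 10.3% of all 22011 windows. The median GC content was 63.0% in the 82 windows and 62.3% in all windows. These stretches upstream of the start are shown for both kinds of window. FAM107A (chr3:58577392-58577457, minus strand) and SH2D3C (chr9:127771459-127771544, minus strand) have the core, in capitals, inside the peak:
FAM107A: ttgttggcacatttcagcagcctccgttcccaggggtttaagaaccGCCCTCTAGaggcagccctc
SH2D3C: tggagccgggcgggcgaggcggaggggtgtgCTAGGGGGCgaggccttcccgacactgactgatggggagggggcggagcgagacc
The next 3 are the windows without the core whose peaks had the highest fold and a summit more than 10 bases upstream of the start, and the fourth, chosen after its values were seen, has H3K27ac in hypoxia alone. They lie at PCDHB14 (chr5:141223206-141223342, plus strand), CA10 (chr17:52158715-52158805, minus strand), BCAM (chr19:44808959-44809058, plus strand) and PTPRG (chr3:61561367-61561517, plus strand), with the 21 bases around the summit in capitals:
PCDHB14: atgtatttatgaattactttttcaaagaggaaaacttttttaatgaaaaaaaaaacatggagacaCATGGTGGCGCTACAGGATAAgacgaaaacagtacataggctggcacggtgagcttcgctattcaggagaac
CA10: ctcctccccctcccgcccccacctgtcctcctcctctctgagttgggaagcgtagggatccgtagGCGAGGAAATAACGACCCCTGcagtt
BCAM: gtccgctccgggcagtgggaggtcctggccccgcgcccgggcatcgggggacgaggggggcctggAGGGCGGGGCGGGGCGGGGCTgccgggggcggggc
PTPRG: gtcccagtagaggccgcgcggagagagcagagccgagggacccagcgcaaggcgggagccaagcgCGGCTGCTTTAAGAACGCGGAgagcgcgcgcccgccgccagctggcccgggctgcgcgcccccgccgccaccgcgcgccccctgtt
The BCAM stretch repeats the GC box GGGCGG, which was in 65.9% of the 82 windows (55.1% to 75.2%), against 56.3% of all windows. BCAM encodes a laminin-binding adhesion molecule, PTPRG a receptor tyrosine phosphatase, and PCDHB14 is one of the clustered protocadherins, whose promoters are known to carry a conserved element bound by CTCF. A missing core says only that these letters are not in the window.

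The other motifs were searched on both strands in the same way. The hypoxia response element that HIF binds, ACGTG, was in 19.5% of the 82 windows (12.4% to 29.4%) and in 23.03% of all windows. Part of the stress element of unfolded protein response genes, CCACG, was in 45.1% (34.8% to 55.9%) and 43.1%, and these letters can overlap those of the hypoxia response element. Part of the oestrogen response element, GGTCA, was in 26.8% (18.4% to 37.3%) and 35.6%. The CCAAT box was in 43.9% (33.7% to 54.7%) and 34.7%, and a shorter part of the CTCF motif, CCCTC, in 75.6% and 76.6%. The box TATAAA was in 4.88% and 9.49%, the AP-1 site TGANTCA in 3.66% and 6.16%, the FOXA site TGTTTAC in 2.44% and 2.86%, and the GATA site AGATAA in 3.66% and 7.90%. With 82 windows each of these intervals is wide, and each includes the share of all windows.

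The hypoxia-only CTCF peaks were low and narrow. Their median fold enrichment, the authors' ratio over background, was 4.43, with quartiles of 3.71 and 5.35, and the highest was 13.9. CTCF peaks of the hypoxia list that overlapped a normoxia peak and had no ZHX2, 58301 in all and called shared CTCF peaks below, had a median of 24.98 with quartiles of 8.80 and 80.6. The median width was 240 bases, against 497 bases for shared peaks and 254 bases for normoxia-only CTCF peaks without ZHX2. The rule itself favours narrow peaks, since a wider peak is more likely to share a base with another. With all peaks cut to 200 bases the class numbered 5638. Low peaks are also more easily missing from another list, so low and narrow is in part the choice itself. The median −log10 q was 16.2, and 746 of the 4372 (17.1%) were under 10. The median percentile of hypoxia-only peaks by fold in their list was 8.91, 19 had a fold of at least 10, and 2 were in the upper 50% of the list by score. The normoxia-only CTCF peaks without ZHX2, chosen by the mirrored rule, numbered 13946 and had a median fold of 5.80 in their own list. Folds of 2 lists are not on 1 scale, so these are given side by side only. At the edge of the rule, 6 hypoxia-only peaks lay within 10 bases of a normoxia CTCF peak (median fold 4.01), and 6 peaks left out by an overlap of 1 to 10 bases had a median fold of 3.94.

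The positions of the hypoxia-only peaks fell into 2 settings. Of the 4372 peaks, 2313 (52.9%, 51.4% to 54.4%) lay under 1 kb from a normoxia CTCF peak, 977 (22.3%) at 1 to 10 kb and 1082 (24.7%) at 10 kb or more. Of the 13946 normoxia-only CTCF peaks, 1531 (11.0%, 10.5% to 11.5%) lay under 1 kb from a hypoxia CTCF peak, 43.5% at 1 to 10 kb and 45.5% farther. The median gap was 839 bases for hypoxia-only peaks and 8493 bases for normoxia-only peaks. The limits of 1 and 10 kb were chosen after seeing the data.

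**Figure D1:**
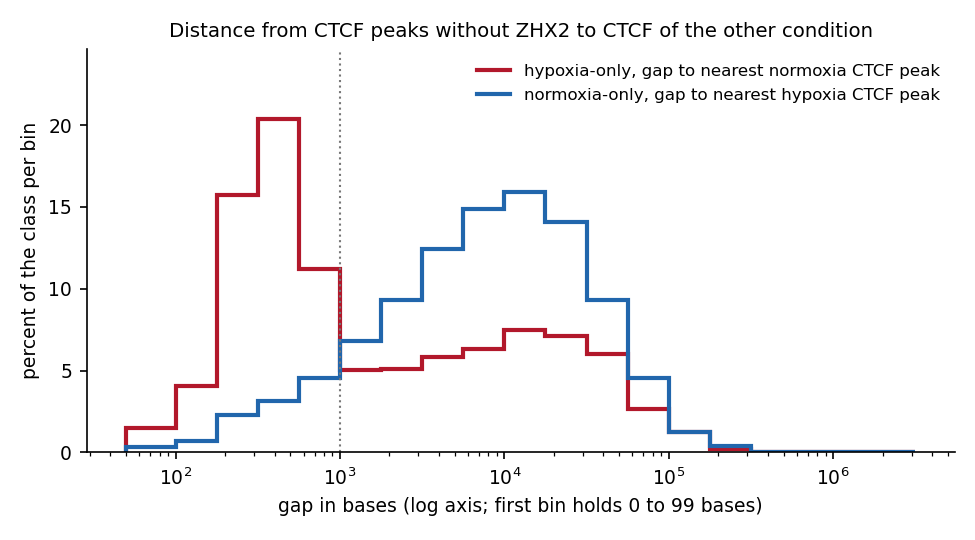
Gap from each CTCF peak without ZHX2 to the nearest CTCF peak of the other condition, in bases on a log axis, as percent of its class per bin (red, 4372 hypoxia-only peaks; blue, 13946 normoxia-only peaks). The red line has a mode left of the dotted line at 1 kb, where 52.9% of hypoxia-only and 11.0% of normoxia-only peaks lie, and a lower one near the single mode of the blue line.

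The 2313 peaks under 1 kb stood beside strong CTCF sites. Their nearest normoxia peak had a median fold of 134 (quartiles 73.9 and 207), above 87.5% of the normoxia list, whose median was 19.0. A hypoxia CTCF peak outside the 4372 lay under 1 kb from 2252 of the 2313 (97.4%). The nearest such peak to each of the 2313 had a median fold of 127 and a median width of 1110 bases, against 499 bases for the whole hypoxia list. The 2 summits, of the hypoxia-only peak and of the normoxia neighbour, were a median of 995 bases apart, with quartiles of 779 and 1228. Hypoxia-only peaks in this setting had a median fold of 3.96, so they are low peaks next to broad, high ones. The 1531 normoxia-only peaks under 1 kb had hypoxia neighbours with a median fold of 13.3. The 2059 hypoxia-only peaks at least 1 kb away had a median fold of 5.24 and a median width of 228 bases. Of these, 76 had a hypoxia CTCF peak outside the 4372 under 1 kb. What a peak caller does on the flanks of a high peak was not tested, and the sources used here do not give read depth.

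**Figure D2:**
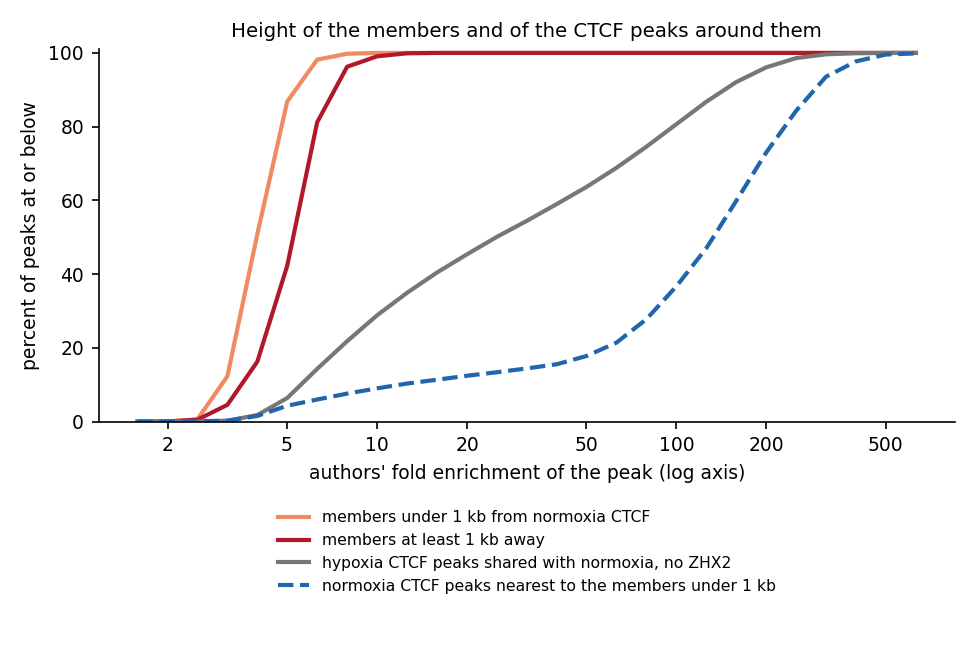
Percent of peaks at or below a given fold enrichment (log axis) for hypoxia-only CTCF peaks under 1 kb from a normoxia CTCF peak (orange), those at least 1 kb away (red), hypoxia CTCF peaks shared with normoxia (grey) and the normoxia CTCF peaks nearest to the orange ones (blue, dashed). Both kinds of hypoxia-only peak lie far left, with medians of 3.96 and 5.24, and the neighbours far right, with a median of 134.

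Most hypoxia-only CTCF peaks lay outside H3K27ac. Of 4372 peaks, 3475 (79.5%) had H3K27ac in neither condition, 671 (15.3%) in both, 203 (4.64%) in hypoxia alone and 23 (0.526%) in normoxia alone. Hypoxia alone means that the CTCF peak overlapped a hypoxia H3K27ac peak and no normoxia one, and normoxia alone the reverse. Peaks of hypoxia H3K27ac covered 19.99% of the hypoxia-only peaks, against 30.5% of all hypoxia CTCF peaks. That background includes peaks with ZHX2, which the rule removes: of the 1010 hypoxia-only CTCF peaks with ZHX2, 93.6% lay on hypoxia H3K27ac. Of shared peaks, 16.8% lay on hypoxia H3K27ac, a difference of 3.16 points (1.96 to 4.41). The difference varied with peak score. The hypoxia-only peaks were split at the quartiles of their score into 4 classes of 1012, 1161, 1067 and 1132 peaks. In the lowest class, 21.5% were on hypoxia H3K27ac, against 53.6% of the 289 shared peaks in that score range, a difference of -32.1 points (-38.3 to -25.8). It was -15.4 points in the next class, -2.20 points (-4.89 to 0.636) in the third, and 5.79 points (3.53 to 8.25) in the highest, where the shares were 19.9% and 14.1%. The highest class is wide, with a median −log10 q of 28.3 for hypoxia-only and 75.7 for shared peaks. Up to the 95th percentile of the hypoxia-only peaks by score, a limit added after seeing the data, these medians were 26.5 and 29.1, the shares 17.0% and 16.5%, and the difference 0.439 points (-2.06 to 3.17).

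**Figure D3:**
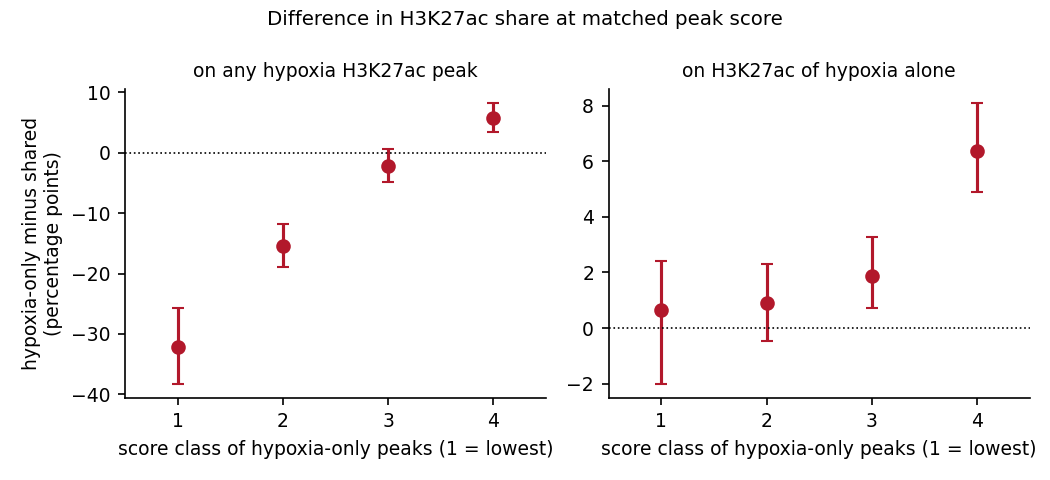
Share of hypoxia-only CTCF peaks minus share of shared CTCF peaks in the same range of peak score, in percentage points with 95% Newcombe intervals, for any hypoxia H3K27ac peak (left) and for H3K27ac of the hypoxia list alone (right). The left difference changes sign over the 4 classes, between -32.1 and 5.79 points, and the right one lies above 0 in each, with intervals that include 0 in the 2 lower classes.

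H3K27ac of hypoxia alone lay at 203 hypoxia-only CTCF peaks and H3K27ac of normoxia alone at 23. All hypoxia CTCF peaks had 2.73% and 1.25% in these classes. Shared peaks had 2.63% and 1.43%, and normoxia-only CTCF peaks 1.79% and 1.60%. Hypoxia-only CTCF peaks with ZHX2 had 5.94% and 0.297%. The share with H3K27ac of hypoxia alone was 2.01 points above that of shared peaks (1.41 to 2.69) and 2.86 points above that of normoxia-only peaks (2.23 to 3.55). From hypoxia-only CTCF peaks with ZHX2 it differed by -1.30 points (-3.03 to 0.161), so a raised share was not particular to peaks without ZHX2. Against shared peaks in the same score range the difference was 0.641 points (-2.01 to 2.41) in the lowest score class and 6.36 points (4.89 to 8.10) in the highest, or 4.72 points (3.21 to 6.57) up to the 95th percentile. The counts varied with distance: 56 against 15 peaks carried H3K27ac of hypoxia alone and of normoxia alone under 1 kb from a normoxia CTCF peak, 68 against 5 at 1 to 10 kb, and 79 against 3 at 10 kb or more. As shares, those of hypoxia alone were 2.42% (1.87% to 3.13%), 6.96% and 7.30%. Under 1 kb the share was therefore not above the 2.63% of shared peaks. Of the 147 with hypoxia alone at least 1 kb away, 55 lay in pseudogenes, and without pseudogenes the share fell to 4.73% (92 of 1947), against 7.14% with them. Normoxia-only CTCF peaks at least 1 kb from hypoxia CTCF had 196 and 190. A hypoxia H3K27ac peak in these counts can still overlap a normoxia one outside the CTCF peak. Hypoxia H3K27ac peaks that overlapped none lay at 151 hypoxia-only CTCF peaks (3.45%), against 2.07% of shared and 0.774% of normoxia-only peaks. Counted from the histone side, 149 of 9041 hypoxia-only H3K27ac peaks (1.65%) held a hypoxia-only CTCF peak, against 10 of 4651 normoxia-only H3K27ac peaks (0.215%). Of all hypoxia H3K27ac peaks, 839 of 46713 (1.80%) held one, so the hypoxia-only H3K27ac peaks were near that share. A normoxia-only CTCF peak was held by 108 of the 9041 (1.19%) and by 100 of the 4651 (2.15%).

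The highest hypoxia-only CTCF peak of all was one with H3K27ac in hypoxia alone. It lay in no annotated gene, at chr6:133130967-133131297, with a fold of 13.9, 53.3 kb from the nearest normoxia CTCF peak, on an H3K27ac peak of fold 3.90 in hypoxia and none in normoxia, and on a WT Flag peak but no PA Flag peak. The next by fold with H3K27ac in hypoxia alone were at chr18:55007869-55008182 (fold 12.4), chr11:64378500-64378828 (10.0), the pseudogene SSBL5P on chromosome 7 (9.02) and an intragenic position in FAM156A on X (7.58). Among the 23 with H3K27ac in normoxia alone, the highest were inside VWA3B (7.58), SQSTM1 (5.84), which encodes the autophagy receptor p62, and MGAT5 (5.46), an N-glycan branching enzyme. One outside genes, at chr6:170735322-170735538 (fold 5.13), lay on both Flag lists.

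Pseudogenes held a larger share of hypoxia-only CTCF peaks than of shared and of normoxia-only peaks, and a smaller one than of hypoxia-only peaks with ZHX2. A RefSeq pseudogene overlapped 157 of the 4372 (3.59%, 3.08% to 4.18%), against 1.75% of all hypoxia CTCF peaks, 1.60% of shared peaks and 1.63% of normoxia-only peaks. The difference was 1.99 points (1.47 to 2.60) from shared and 1.96 points (1.40 to 2.59) from normoxia-only peaks. Hypoxia-only CTCF peaks with ZHX2 had 5.84%, a difference of -2.25 points (-3.95 to -0.834). Against shared peaks in the same score range the difference was 0.246 points (-2.11 to 1.69) in the lowest class, 1.83 (0.669 to 3.07) and 1.42 (0.384 to 2.71) in the next ones, and 2.43 (1.24 to 3.97) in the highest up to the 95th percentile. By distance from normoxia CTCF the share was 1.95% under 1 kb, 3.99% at 1 to 10 kb and 6.75% at 10 kb or more. Normoxia-only peaks at 10 kb or more from hypoxia CTCF had 1.80%, a difference of 4.95 points (3.56 to 6.63).

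These 157 peaks lay in 143 pseudogenes, of which 105 have the symbol of a protein-coding gene followed by P, against 7526 of all 15212 RefSeq pseudogenes. Most copies of that kind are retrocopies, spliced messages pasted back into the genome without introns. The highest of the 105 were LDHAP4, named after lactate dehydrogenase A (fold 8.31), YWHAEP5 (7.70), named after a 14-3-3 protein, and SLC9B1P5 (7.36). RNPS1P1, RPS16P10, IPO7P1 and TPT1P4 followed, each at 7.27. The symbol alone does not tell retrocopies from other copies, and SLC9B1P5 is annotated over a much longer stretch than the rest of these. Others were named after RPS24, RPS4X and EIF4A1 of the translation machinery, after HNRNPA1, HNRNPA3, HNRNPD and HNRNPR, which package nuclear RNA, and after the chaperone HSPA8. Ribosomal protein genes gave 15 of the 105, against 1959 of the 7526 pseudogenes with such symbols in the annotation. Among named protein-coding genes, HNRNPA1L2 is itself a retrocopy of HNRNPA1 and is described with the gene ends below.

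The pseudogene peaks were often on H3K27ac of hypoxia alone. Of the 157 peaks, 61 (38.9%, 31.6% to 46.7%) lay on H3K27ac of hypoxia alone, 26 on H3K27ac of both conditions, and 0 on H3K27ac of normoxia alone. A count of 0, taken to allow 3 peaks, allows a share of up to 1.91%, and the Wilson limit is 2.39%. Normoxia-only CTCF peaks in pseudogenes had 4 and 3 of 227 in the classes of hypoxia alone and normoxia alone, and shared peaks in pseudogenes 25 and 10 of 931. Hypoxia-only CTCF peaks with ZHX2 in pseudogenes were not examined for this. Among H3K27ac peaks as such, pseudogenes overlapped 263 of 9041 hypoxia-only ones (2.91%) and 52 of 4651 normoxia-only ones (1.12%). The 61 CTCF peaks in pseudogenes were 30.0% of all 203 hypoxia-only CTCF peaks with H3K27ac in hypoxia alone. Their H3K27ac peaks were low and narrow, with a median fold of 3.29 and a median width of 323 bases, against 3.61 and 585 bases for the 142 outside pseudogenes. In 52 of the 61 the H3K27ac peak lay wholly within the pseudogene, whose median length was 1472 bases. Without pseudogenes, 142 of 4215 hypoxia-only CTCF peaks (3.37%) lay on H3K27ac of hypoxia alone, still 0.738 points above shared peaks (0.217 to 1.34), and 23 on H3K27ac of normoxia alone. WT Flag peaks covered 2 of the 157. Pseudogenes resemble their parent genes in sequence, so short reads can be placed at a copy they did not come from. The sources used here do not say how the authors treated such reads, and its part in these counts was not tested.

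**Figure D4:**
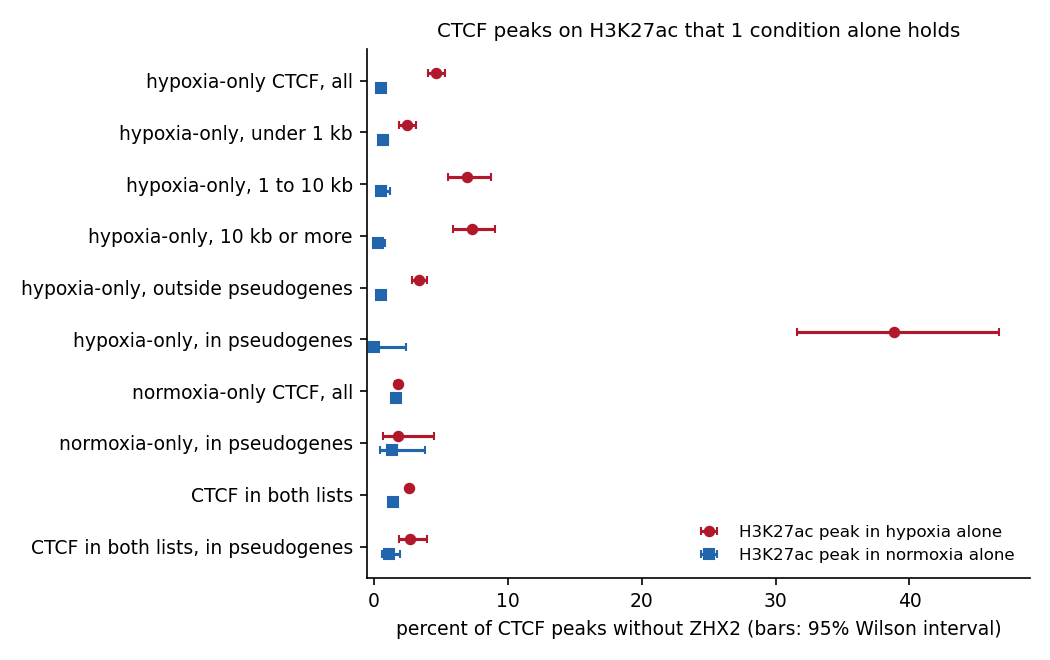
Percent of CTCF peaks without ZHX2 that overlapped H3K27ac of hypoxia alone (red circles) or of normoxia alone (blue squares), with 95% Wilson intervals. Shown are hypoxia-only peaks by distance from normoxia CTCF and by pseudogene overlap, then normoxia-only and shared CTCF peaks. The word alone refers to overlap at the CTCF peak itself. Among the classes shown, hypoxia-only peaks in pseudogenes are highest at 38.9% for hypoxia alone, with 0 for normoxia alone.

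Protein-coding gene ends held 497 hypoxia-only CTCF peaks within 1 kb (11.4%, 10.5% to 12.3%), against 17.4% of all hypoxia CTCF peaks, 7.80% of shared peaks, 7.92% of normoxia-only peaks and 60.5% of hypoxia-only peaks with ZHX2. Within score ranges the comparison with shared peaks turned round in the 2 lower classes, by -16.3 points (-22.3 to -10.6) and -8.04 points (-11.1 to -4.99). It was -1.10 points (-3.11 to 1.09) in the third and -1.12 points (-2.43 to 0.480) in the highest, or -3.10 points (-4.65 to -1.24) up to the 95th percentile. Of the 497, 294 (59.2%) lay on H3K27ac of both conditions, against 9.73% of the 3875 peaks elsewhere. Bodies of protein-coding genes held 2113 of the 4372 (48.3%), against 50.1% of shared and 52.8% of normoxia-only peaks. Annotated lncRNA genes held 642 (14.7%), near the 15.9% of shared and 14.8% of normoxia-only peaks. In no annotated gene lay 1597 (36.5%), a share not computed for the other classes. The direction of transcription was known from the promoter windows, which hold none on chromosome 8, so 4137 of the 4372 peaks were used. Of these, 308 summits lay within 1 kb of a gene start, 197 of them downstream (64.0%, 58.5% to 69.1%). For normoxia-only CTCF peaks the downstream share was 59.2% of 693 (55.5% to 62.8%) and for shared peaks 51.3% of 2235 (49.2% to 53.4%). For hypoxia-only peaks at least 1 kb from normoxia CTCF it was 71.4% of 133 (63.2% to 78.4%).

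**Figure D5:**
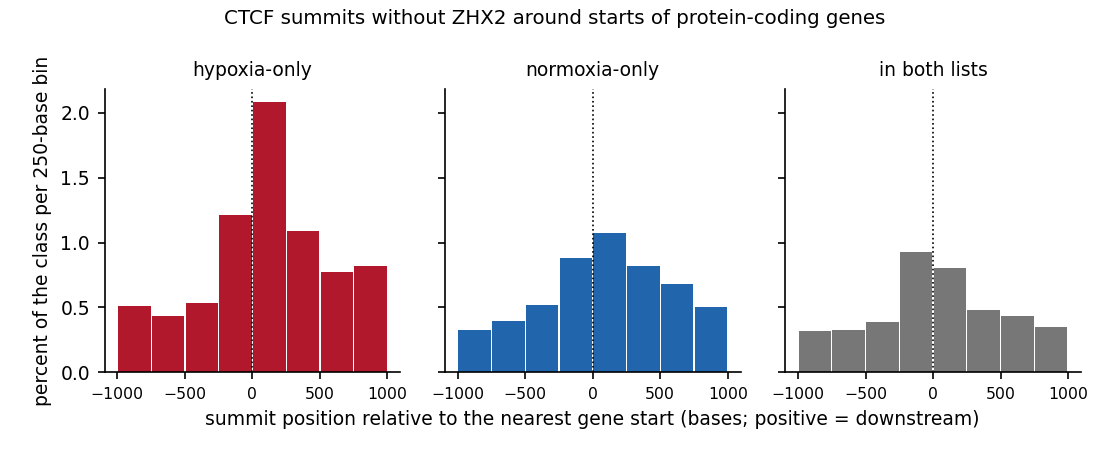
Position of CTCF summits without ZHX2 relative to the nearest start of a protein-coding gene, in bins of 250 bases (left, hypoxia-only, middle, normoxia-only, right, in both lists). Percents are of the 4137, 13339 and 55601 peaks outside chromosome 8, for which no gene start was available. The hypoxia-only class is highest in the bin of 0 to 250 bases downstream, with 2.08% of these peaks, against 1.07% for normoxia-only and 0.800% for shared peaks.

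The 25 highest hypoxia-only peaks at protein-coding gene ends had folds between 6.10 and 9.09. H3K27ac was present in both conditions at 13 of them, in hypoxia alone at 1 and in neither condition at 11, WT Flag peaks covered 10, PA Flag peaks 10, and 9 lay under 1 kb from a normoxia CTCF peak. The first group lay at promoters with H3K27ac in both conditions. The peak at HSPD1 and HSPE1 (chr2:197500904-197501324, fold 9.09) lies by the shared promoter of the HSP60 and HSP10 mitochondrial chaperones. It was 416 bases from a normoxia CTCF peak, with H3K27ac folds of 15.7 in hypoxia and 12.8 in normoxia. The peak at EIF2AK3 (chr2:88627919-88628249, fold 8.69), which encodes PERK, the endoplasmic reticulum stress kinase, was 36.5 kb from the nearest normoxia CTCF peak, with H3K27ac folds of 17.9 and 18.7. Both lay on WT and PA Flag peaks. SAFB and SAFB2, a divergent pair of nuclear scaffold proteins, shared a peak of fold 6.25, and DNAAF10 and PNO1 shared one of fold 6.53, PNO1 being a ribosome assembly factor. ANKFY1 (8.36), CEP76 (6.13) and the pair IRGQ and ZNF576 (6.27) had the same pattern, with H3K27ac in both conditions and both Flag lists, 391, 77 and 226 bases from a normoxia CTCF peak.

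A second group had no H3K27ac in either condition and no Flag peak. It included DPP6 (chr7:153748132-153748392, fold 8.25), a potassium channel subunit of neurons, PCDHB14 (8.00), C3orf22 (7.69), ZNF563 (7.47), FHDC1 (7.35), RD3 (6.91), a photoreceptor protein, MAP7 (6.80), FKBP1C (6.46), SIRPD (6.31) and the exonuclease gene REXO2 (6.29). Of these, RD3 lay under 1 kb from a normoxia CTCF peak, at 250 bases. The peaks at C3orf22 and FHDC1 lay inside other protein-coding genes, CHST13 and ARFIP1. HNRNPA1L2 (chr13:52643253-52643474, fold 6.27) was the one with H3K27ac in hypoxia alone, at fold 4.49. HNRNPH2, an RNA-binding protein gene on X (fold 7.10), had the widest peak of the 25, with 925 bases, and H3K27ac folds of 4.18 in hypoxia and 2.25 in normoxia. ISG20, ZNF473, KMO, C4orf36 and KLHL26 were also among the 25, all with H3K27ac in both conditions, at folds between 6.10 and 6.55. The C4orf36 peak lay inside AFF1.

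Away from gene ends the 10 highest peaks had folds between 11.1 and 13.9. All 10 lay at least 1 kb and 8 at least 10 kb from a normoxia CTCF peak, 2 had H3K27ac in hypoxia, and 0 had it in normoxia. Those inside genes were in MTUS2 on chromosome 13 (fold 12.5), in PDE3B, a phosphodiesterase of insulin signalling, on chromosome 11 (11.1), and in an lncRNA gene on chromosome 1 (11.9). By number of peaks, 1893 protein-coding genes held a hypoxia-only CTCF peak in their body and 1614 of them held 1. CACNA1C, PDE4D and SUGCT held 5 each, and MEGF6, FMN2, CDH23, SEC14L1, RBFOX3, CTNNA2, RANBP2, HDAC4, COL22A1 and PTPRD held 4 each. These are mostly long genes, up to 2299 kb in PTPRD, while MEGF6 (137 kb) and SEC14L1 (128 kb) were the shortest. All 4 peaks in MEGF6 lay under 1 kb from a normoxia CTCF peak, while all 4 in HDAC4, a class II histone deacetylase gene, lay farther, with folds between 4.57 and 6.80.

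Across 8 gene lists with 181 genes, 11 genes had a hypoxia-only CTCF peak within 1 kb of an annotated end, beside 561 of all 19970 protein-coding genes (2.81%). Chaperones came first by share, with HSPD1, HSPE1, HSPA1A and HSPA4 of 22 genes of heat shock and mitochondrial chaperones, and HSPD1 and HSPE1 share 1 peak. HSPA1A, the inducible HSP70, had a fold of 5.76 and H3K27ac folds of 19.96 in hypoxia and 19.5 in normoxia, and since its neighbour HSPA1B is a near-identical copy the placement of reads there is uncertain. HSPA4 had a low peak, of fold 3.75, 340 bases from a normoxia CTCF peak and 8 bases from a ZHX2 peak. Of 32 genes of the unfolded protein response and endoplasmic reticulum, EIF2AK3 was the one.

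Of 36 hypoxia-induced genes, 3 had such a peak. PFKFB4, which drives glycolysis through fructose 2,6-bisphosphate, had a peak of fold 5.91 with no H3K27ac in either condition. That peak lay inside another protein-coding gene, UCN2. DDIT4, the mTORC1 inhibitor REDD1, had one of fold 3.48 with H3K27ac folds of 30.2 in hypoxia and 22.1 in normoxia. BHLHE40, a transcriptional repressor, had 2, of folds 5.32 and 3.82, on an H3K27ac peak of fold 45.0 in hypoxia and 31.4 in normoxia. The peaks at DDIT4 and BHLHE40 lay on WT and PA Flag peaks and 573 to 816 bases from a ZHX2 peak. The remaining lists gave TRPS1 of 22 luminal and oestrogen response genes (fold 3.66), TGFBR2 of 24 invasion and matrix genes (5.35, without H3K27ac) and PHGDH, the first enzyme of serine synthesis, of 20 genes of translation and the amino acid response (3.88). None of 17 chromatin looping genes and none of 13 genes in the list of hypoxia signalling with ZHX proteins had one. A count of 0, taken to allow 3 genes, allows up to 17.6% and 23.1%, and the Wilson limits are 18.4% and 22.8%. The share of the chaperone list was 18.2% (7.31% to 38.5%), which rests on 3 peaks, and each other list had 0 to 3 genes.

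Flag-tagged ZHX2 covered part of these peaks although the rule removed every overlap with endogenous ZHX2. WT Flag peaks overlapped 417 (9.54%, 8.70% to 10.4%) and PA Flag peaks 325 (7.43%, 6.69% to 8.25%), against 19.8% and 15.4% of all hypoxia CTCF peaks, a background that includes peaks with ZHX2. Shared peaks had 7.15% and 4.23%, and normoxia-only peaks 6.64% and 4.55%. Within score ranges the comparison with shared peaks turned round, with differences of -25.0, -12.1, -1.61 and -1.42 points for WT Flag and -21.5, -8.71, -0.313 and -0.303 points for PA Flag from the lowest class to the highest. In the 2 upper classes the intervals include 0 for both lists, while up to the 95th percentile the highest class had -3.23 points (-4.71 to -1.45) for WT Flag and -1.95 points (-3.24 to -0.341) for PA Flag. The shares also depend on the overlap rule, with 19.9% and 16.8% for summits within 250 bases and 21.8% and 18.7% for peaks cut to 200 bases. Both Flag lists covered 320 peaks, the WT list alone 97 and the PA list alone 5. The WT list has 31278 peaks of median width 803 bases and the PA list 16019 of 1513 bases, so counts of the 2 lists are not compared. Of the 417, 387 (92.8%) lay on hypoxia H3K27ac, 242 (58.0%) at a gene end, and 235 (56.4%) within 1 kb of an endogenous ZHX2 peak, against 6.65% of the hypoxia-only peaks without WT Flag. None of these shares was computed for other CTCF peaks on WT Flag, so they are not shown to be particular to hypoxia-only peaks. The endogenous ZHX2 peaks of hypoxia had a median width of 350 bases. The highest with WT Flag, apart from the chromosome 6 peak, was inside GNAI2, an inhibitory G protein gene (chr3:50236203-50236505, fold 10.9), 228 bases from a ZHX2 peak. The highest with PA Flag outside gene ends were at chr18:3296315-3296631 (fold 7.69) and in LINC01508 on chromosome 9 (7.34), both also on WT Flag.

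All 23 chromosomes examined contributed. The share of hypoxia CTCF peaks that were hypoxia-only and without ZHX2 ran between 4.12% on chromosome 21 (3.09% to 5.49%) and 7.00% on chromosome 15 (6.10% to 8.01%), around 5.65% overall. Peaks were mostly solitary, with a median of 361181 bases between the starts of neighbours, and 195 of 4349 neighbouring pairs (4.48%) were under 5 kb apart.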

How the data were processed

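ChIP-seq peak lists of 8 immunoprecipitated groups of 2 samples were used, while 12 samples had no antibody, 4 of which are titled Flag. The submitters' processing notes name cutadapt, Bowtie2, MACS2 and the build GRCh38 (hg38), without versions. Pooling of samples, use of inputs, duplicates and reads with several matches, and depth, are not given in the sources used here. The authors deposited for each peak a score, a fold enrichment over background (a ratio) and a −log10 q, which serve here within 1 list only. Values of −log10 q began at 5.09 in the hypoxia and 5.00 in the normoxia CTCF list, 1.30 in both ZHX2 lists, and 3.47 in hypoxia and 3.49 in normoxia for H3K27ac. H3K27ac lists are broad and without summits, and Flag lists are positions alone.

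From these, overlaps of at least 1 bp, gaps and shares were computed with Python 3 (pandas, statsmodels), with 95% Wilson and Newcombe intervals. Overlap steps were tested on simulated data. Neighbouring peaks are not independent. Gene positions, without strand, and promoter sequences came from RefSeq (GRCh38.p14). A gene end is either annotated end of a gene, and a pseudogene counts when it overlaps by 1 bp. Members and gene lists were chosen with earlier results of these data known. Genes were named by a rule: the 25 highest folds at gene ends, the 10 highest elsewhere, the 5 highest per Flag list and per H3K27ac class, the 10 genes holding most peaks (13 with ties) and list genes with a peak. Pseudogenes were named after their values were seen. An item that the rule names is not reported here. Alternatives are listed under the dependence on processing.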

Additional observations from a re-analysis of the deposited data

How the results depend on the processing

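No paired analysis was possible because each group has 1 peak list without values per replicate, and leaving out a replicate was not possible for the same reason. Of 97 values recomputed under alternatives, 37 stayed within the interval of the reported value (counts within 1.5 times), 57 moved and 3 changed sign. With an overlap of 50% of the shorter peak, the shares on hypoxia H3K27ac, on WT Flag, on PA Flag and at gene ends were 22.5%, 12.1%, 9.74% and 13.2%, and the difference from shared peaks in H3K27ac 4.55 points. With summits within 250 bp as overlap, the shares on hypoxia H3K27ac, on H3K27ac of hypoxia alone, on WT Flag, on PA Flag and at gene ends were 30.3%, 4.03%, 19.9%, 16.8% and 19.4%, the share under 1 kb from normoxia CTCF 60.1%, the CTCF core in 12.2% of promoter windows, the list genes 28 and the difference 9.71 points. With peaks of 200 bp these 5 shares were 32.4%, 3.96%, 21.8%, 18.7% and 20.8%, the share under 1 kb 48.8%, the CTCF core in 11.1%, the list genes 26 and the difference 12.9 points. Requiring 1 kb from any normoxia CTCF peak and any ZHX2 peak left 1930 peaks, with 18.7%, 7.20%, 5.70%, 4.25% and 6.53%, pseudogenes 5.70%, 3 list genes and a difference of 4.83 points. The upper 50% by score left 2 peaks, so its shares (100% on H3K27ac, 50% under 1 kb, 0 for the others and 0 list genes, difference 83.2 points) say nothing of the class. With −log10 q of at least 10, gene ends were 10.5% and the share under 1 kb 45.9%. Gene ends were 19.9% with a window of 3 kb, with 25 list genes, and 19.9% with all annotated genes. The H3K27ac difference was reversed in the 3 lower score classes, at -32.1, -15.4 and -2.20 points, and 5.79 points in the highest (0.439 up to the 95th percentile of score, added after seeing the data), and the cause was not tested. Added after seeing the data, leaving out pseudogenes gave 18.7% and 3.37% on H3K27ac and a difference of 1.84 points. Peaks at least 1 kb from normoxia CTCF, also added, numbered 2059, with 23.1% and 7.14% on H3K27ac, 9.13% at gene ends, 5.44% in pseudogenes, 6 list genes and a difference of 6.24 points. Read depth is unknown, so a peak missing from the normoxia list was not detected there, which does not show that CTCF was absent.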

Other observations

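Small RNA genes were a minor location of the hypoxia-only CTCF peaks. Annotated miRNA genes overlapped 5 of the 4372 peaks (0.114%, 0.0489% to 0.267%), against 0.0645% of normoxia-only and 0.0686% of shared CTCF peaks. They were MIR675, which lies within the imprinted H19 transcript, MIR1469, MIR4449, MIR5090 and MIR6884, named after their values were seen. Annotated snoRNA genes overlapped 3 peaks.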
